A study of Mus musculus with 77 samples.

Results

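The 10 genes described here encode the core proteins that make and use microRNAs (miRNAs), and they were taken by symbol from 2 mRNA tables of mice studied after chronic social defeat stress (CSDS). They are the 4 Argonautes (Ago1, Ago2, Ago3 and Ago4), the processing enzymes Dicer1, Drosha and Dgcr8, and the Argonaute-binding scaffolds Tnrc6a, Tnrc6b and Tnrc6c. All 10 were in both tables: 10 of 16587 genes of AGO2-bound mRNA from the BNST, a limbic forebrain region (bed nucleus of stria terminalis), and 10 of 13084 genes of blood, from a union of 18308 genes. The genes were chosen by name, with earlier results of these data known.

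In this pathway, Drosha with its RNA-binding partner Dgcr8 crops the primary transcript in the nucleus, and Dicer1 cuts the exported hairpin into a short duplex. An Argonaute keeps 1 strand as its guide, and the guide pairs through its seed with sites that lie mostly in the 3 prime UTRs of mRNAs. The Tnrc6 proteins (GW182 family) join Argonaute to the deadenylases that shorten the poly(A) tail of the target. AGO2 is the catalytic Argonaute, and it also matures miR-451a, an abundant miRNA of red blood cells, without Dicer.

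The mice were 8 weeks old males of C57BL/6Crl (B6) or DBA/2Crl (D2). They went through CSDS, after which social avoidance divided the defeated mice into resilient and susceptible ones, or served as same-strain controls without defeat, and tissue was taken 6 to 8 days later. The AGO2-bound mRNA came from B6 mice only, as 5 control, 5 resilient and 4 susceptible libraries, each an immunoprecipitate from a pool of 3 BNSTs. Blood mRNA, depleted of ribosomal and globin RNA, came from single mice, with 5 B6 control, 5 B6 resilient, 5 B6 susceptible, 5 D2 control and 5 D2 susceptible libraries. No input RNA of the pools and no control immunoprecipitate was analysed here. A level in the AGO2 data is the share of an mRNA in the immunoprecipitate, called AGO2-bound here. mRNA bound by AGO2 cannot be told apart from mRNA carried along without binding. More mRNA in the tissue cannot be told apart from more binding of it. In these bulk samples, fewer cells of a type and less RNA per cell cannot be told apart either.

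Levels are log2 CPM as deposited, the log2 of the count of a gene scaled by library size. A gene was called different where limma gave p under 0.05 and the fold was at least 1.2, and the Benjamini-Hochberg adjusted p over all genes of the table is given beside it. The depth was 3701281 to 10659882 reads per AGO2 pool and 9751603 to 15878495 reads per blood library. Every gene of the 10 had reads in every library, from 19 for Dgcr8 upwards in the pools and from 13 for Dgcr8 upwards in blood. Before the blood results, 2 D2 mice (control 2 and susceptible 2) need mention, because the column headers of the table place each in the opposite group from the labels. The labels were used, and some of the D2 results are also given without these mice. Within every other title prefix, the number that ends the title is higher in each control than in each defeated mouse. The groups of the headers keep this order for the mice with titles that begin with ED4, and the labels do not. Which is right was not tested, so all D2 stress differences depend on this choice. Neuron, astrocyte, oligodendrocyte and microglia markers were all in the AGO2 table, while the 4 B cell and 4 NK cell markers were absent from it. Neutrophil, monocyte, lymphocyte and platelet markers were all in the blood table, and none of the 5 choroid plexus markers was.

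The guides that AGO2 held in the BNST are shown first, because they are the cargo of this machinery and give the seeds used below. The list holds the most abundant miRNAs of the AGO2 miRNA libraries that had a RefSeq sequence (GRCm38), 9 of the leading 10, and miR-451a. The seed, bases 2 to 8, is in capitals.
miR-434-3p: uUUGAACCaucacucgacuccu
miR-22-3p: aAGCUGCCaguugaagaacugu
let-7e-5p: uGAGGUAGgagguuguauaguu
miR-30a-5p: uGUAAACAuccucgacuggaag
let-7d-5p: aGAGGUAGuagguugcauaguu
miR-92b-3p: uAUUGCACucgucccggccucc
miR-125a-5p: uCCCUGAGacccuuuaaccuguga
miR-128-3p: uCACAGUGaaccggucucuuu
let-7i-5p: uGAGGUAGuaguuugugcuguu
miR-451a: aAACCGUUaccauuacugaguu
The leading guide was miR-434-3p, with a mean of 16.34 log2 CPM over 13 pools, and let-7e-5p, let-7d-5p and let-7i-5p share a seed. The tenth sequence, that of miR-451a, was looked up after the gene values had been seen. It ranked 205 of 788 miRNAs in the AGO2 libraries, at 6.51 to 7.99 log2 CPM. In blood it ranked 1 of 299, with 23.5% to 39.1% of the miRNA reads of a library.

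The mRNAs of the machinery hold matches to these seeds themselves. In the longest annotated 3 prime UTR of Dicer1 (3851 bases, GENCODE M21), the 7-base matches to 4 of the 8 seeds occurred once each. They are shown with 8 flanking bases on either side on the minus strand of chromosome 12 of GRCm38, because Dicer1 is the gene on which the BNST results turn, with the match in capitals.
miR-22-3p match, chr12:104690879-104690901: aatggggtGGCAGCTcactaggg
miR-128-3p match, chr12:104690342-104690364: attttttgCACTGTGactataat
miR-434-3p match, chr12:104690150-104690172: tgcacttaGGTTCAAgtcacccg
miR-125a-5p match, chr12:104689502-104689524: catccattCTCAGGGctcaaatg
Ago2 had 3 matches to the let-7 seed in a 3 prime UTR of 11064 bases on the minus strand of chromosome 15. They are the only let-7 matches among the 10 genes apart from 1 in Ago3.
let-7 match, chr15:73101717-73101739: cataaaagCTACCTCtgacttct
let-7 match, chr15:73100033-73100055: cctctgtcCTACCTCcaggcact
let-7 match, chr15:73097975-73097997: atgtggatCTACCTCagttaaac
Of 13896 AGO2 table genes with an annotated 3 prime UTR, 12.2% held the let-7 match CTACCTC, 7.39% the miR-434-3p match GGTTCAA, 17.9% the miR-22-3p match GGCAGCT, 17.4% the miR-125a-5p match CTCAGGG and 25.2% the miR-128-3p match CACTGTG. Their median 3 prime UTR was 1430 bases, shorter than that of Dicer1 or Ago2, so these shares do not give the share for a UTR of their length. Dgcr8 and Drosha, with 1574 and 169 bases, held none of the 8 matches. A match of letters is not shown here to be a bound site.

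The genes differed strongly in their level. Per exonic kilobase, the 5 control pools held most Tnrc6a (5.80 ± 0.10 log2 CPM per kb, SD, n = 5), a scaffold, followed by Tnrc6c (5.43 ± 0.14) and Tnrc6b (5.32 ± 0.11), which overlapped each other. Ago2 (4.99 ± 0.12) was the highest Argonaute there, above Ago1 (4.65 ± 0.07) without overlap. Dicer1 (4.37 ± 0.06) came next, and then Ago4 (4.02 ± 0.18), Ago3 (3.78 ± 0.10) and Drosha (3.67 ± 0.09), each of which overlapped its neighbour. Dgcr8 was lowest at -0.35 ± 0.29.

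The order in blood was another. In B6 controls Ago2 led at 3.57 ± 0.21 log2 CPM per kb (SD, n = 5), above Tnrc6b (2.60 ± 0.16) and Tnrc6a (2.37 ± 0.13), which overlapped. Dicer1 (1.37 ± 0.03), Drosha (1.25 ± 0.31) and Tnrc6c (0.98 ± 0.19) overlapped in turn, and below them lay Ago1 (0.38 ± 0.09), Ago4 (-0.13 ± 0.19), Ago3 (-1.18 ± 0.29) and Dgcr8 (-1.62 ± 0.35). Ago1, Ago3 and Ago4, the Argonautes without known slicing activity or with little of it, thus lay far below Ago2 in blood and nearer to it in the pools. These 3 genes are neighbours on the minus strand of chromosome 4 of GRCm38, at chr4:126331704-126429556 for Ago3, chr4:126435012-126468583 for Ago1 and chr4:126489541-126533472 for Ago4. Dicer1 is at chr12:104687742-104751952 and Dgcr8 at chr16:18253948-18289246, both on the minus strand, and Tnrc6a at chr7:123123885-123195296 and Tnrc6c at chr11:117654289-117763439, both on the plus strand. Chromosome 15 holds Drosha (chr15:12824815-12935291) and Tnrc6b (chr15:80711313-80941085) on the plus strand and Ago2 (chr15:73095844-73184935) on the minus strand. The tables were scaled separately, so levels are compared between genes within a table only. The AGO2 libraries were made from immunoprecipitates with a kit for mRNA, and the blood libraries with a kit for total RNA. The part of this in the differing order was not tested.

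**Figure D1:**
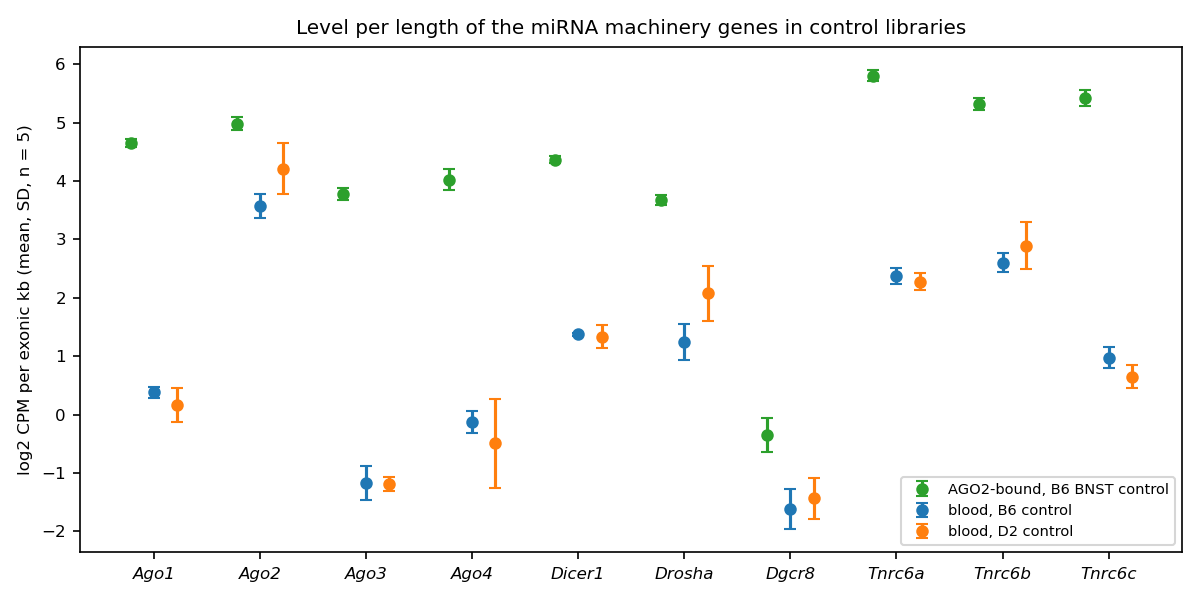
Level per exonic kilobase (vertical axis, log2 CPM per kb) of each gene in control libraries of AGO2-bound BNST mRNA and of B6 and D2 blood, as mean and SD of 5 libraries. Tnrc6a led in the pools at 5.80 and Ago2 led in blood at 3.57 in B6 and 4.21 in D2.

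To ask whether the levels of the machinery's own mRNAs in the AGO2 immunoprecipitates differed after CSDS, the pools of resilient and susceptible mice were compared with those of controls. Dicer1 was higher in both. Its level in the 5 control pools was 8.48, 8.49, 8.35, 8.45 and 8.40 log2 CPM. In the resilient pools it was 8.77, 8.76, 8.65, 8.83 and 9.01, and in the 4 susceptible pools 8.79, 8.69, 8.81 and 8.82. Every defeated pool lay above every control pool. The log2 difference was 0.37 (SE 0.08) in resilient pools, a 1.29-fold rise (limma adjusted p = 0.0292), and 0.35 (SE 0.08) in susceptible pools, a 1.27-fold rise (limma adjusted p = 0.0316). The exact two-sided permutation test gave p = 0.00794 in each, the smallest that these group sizes allow. Both comparisons share the same control pools. Susceptible and resilient pools differed by -0.02 (95% interval -0.20 to 0.15).

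Of the 10 genes, 3 were called in resilient pools, all higher, where 8.65% of all genes were called higher and 17.7% in either direction. Among the 4921 genes with an exonic length of at least 5.935 kb, that of the shortest of the 10, the share called higher was 10%. In susceptible pools 1 gene was called, Dicer1, against 9.65% of all genes called higher and 18.9% in either direction. At an adjusted p under 0.05, Dicer1 alone of the 10 passed in each comparison, and 1.95% and 4.02% of all genes did. The groups did not overlap for 1 of the 10 in resilient pools (5.18% of all genes) and for 3 of the 10 in susceptible pools (10.9% of all genes).

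**Figure D2:**
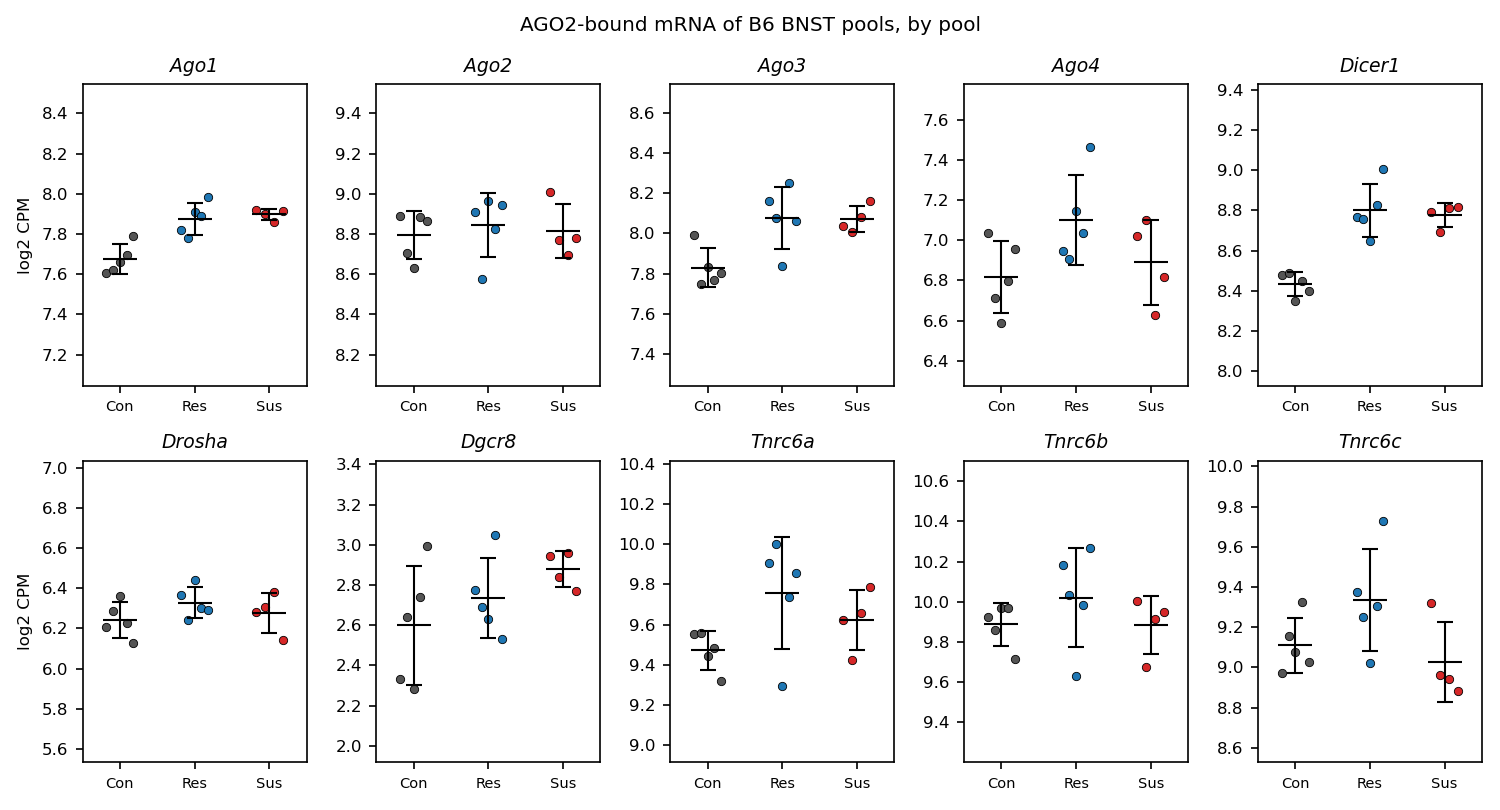
AGO2-bound mRNA of each gene (vertical axes, log2 CPM, each spanning the same 1.5 log2 units) in control (Con, n = 5), resilient (Res, n = 5) and susceptible (Sus, n = 4) BNST pools, with points for pools and bars for mean and SD. All 9 defeated pools lie above the 5 control pools for Dicer1, while the groups of Ago2 and Drosha overlap.

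Among the Argonautes, Ago1 and Ago3 were not called in either comparison, which share the control pools. Ago1 was 7.61, 7.62, 7.66, 7.70 and 7.79 in control pools, 7.82, 7.78, 7.91, 7.89 and 7.99 in resilient pools, and 7.92, 7.90, 7.86 and 7.92 in susceptible pools. The susceptible pools lay above all controls, and 4 of 5 resilient pools did. The log2 difference was 0.20 (SE 0.07, limma adjusted p = 0.128) in resilient and 0.22 (SE 0.08, limma adjusted p = 0.100) in susceptible pools, under the fold minimum of 1.2. Ago3 was 7.99, 7.75, 7.83, 7.77 and 7.80 in control pools, 8.16, 8.07, 7.84, 8.25 and 8.06 in resilient pools, and 8.04, 8.01, 8.08 and 8.16 in susceptible pools. Its difference was 0.25 (SE 0.09, limma adjusted p = 0.117) and 0.24 (SE 0.09, limma adjusted p = 0.132), also under the fold minimum. The exact permutation test gave p = 0.0159 for each of these 4 differences, and none had an adjusted limma p under 0.05.

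Ago4 was called higher in resilient pools, with less support. It was 7.03, 6.71, 6.59, 6.80 and 6.96 in control pools, 6.94, 6.91, 7.15, 7.04 and 7.46 in resilient pools, and 7.02, 7.10, 6.63 and 6.82 in susceptible pools. The resilient pools overlapped the controls, and resilient pool 5 was the highest. The difference was 0.28 (SE 0.12, limma adjusted p = 0.198) in resilient pools, and it fell to 0.19 and was no longer called without resilient pool 5. It was also lost without control pool 2, 3 or 4 or resilient pool 3, at 0.22 to 0.28. In susceptible pools it was 0.07 (SE 0.13, limma adjusted p = 0.787).

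Ago2 itself, the bait of the immunoprecipitation, did not differ beyond the spread of the pools. Its mRNA was 8.89, 8.71, 8.63, 8.89 and 8.87 in control pools, 8.91, 8.58, 8.96, 8.82 and 8.94 in resilient pools, and 9.01, 8.77, 8.70 and 8.78 in susceptible pools. The log2 difference had a 95% interval of -0.15 to 0.25 in resilient and -0.19 to 0.23 in susceptible pools, so a change of over 0.25 in either direction lies outside both. The AGO2 protein was not measured in these libraries. Drosha gave 0.09 (95% interval -0.08 to 0.26) and 0.04 (-0.14 to 0.21). Dgcr8, with 19 to 66 reads per pool, gave 0.14 (-0.24 to 0.51) and 0.28 (-0.12 to 0.68), intervals wide enough to hold a change as large as that of Dicer1.

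**Figure D3:**
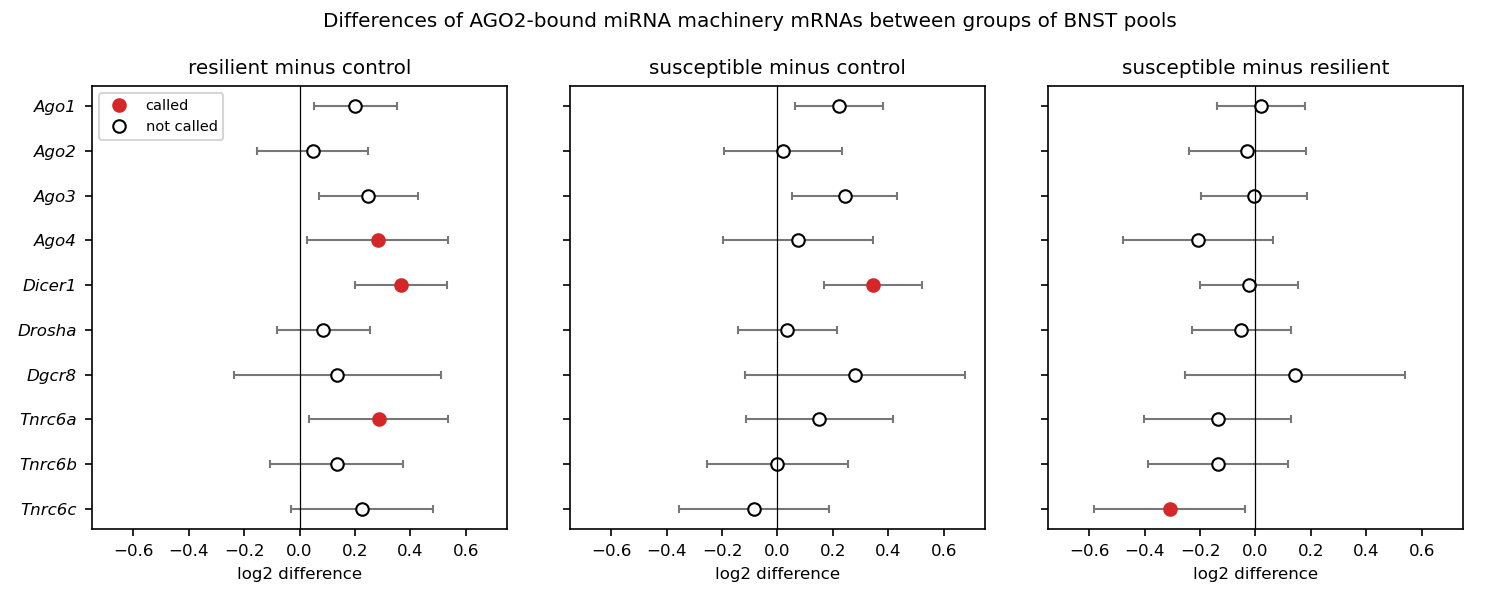
Log2 difference (horizontal axis) of each gene between groups of BNST pools, with 95% intervals from limma, and filled points where the gene was called. Dicer1 is at 0.37 and 0.35 against controls and at -0.02 between susceptible and resilient pools.

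Among the scaffolds, Tnrc6a was called against controls and Tnrc6c between the defeated groups. Tnrc6a was 9.55, 9.56, 9.44, 9.48 and 9.32 in control pools, 9.91, 10.003, 9.29, 9.74 and 9.85 in resilient pools, and 9.62, 9.42, 9.66 and 9.79 in susceptible pools. All resilient pools but pool 3, the lowest of the 14, lay above every control. The difference was 0.29 (SE 0.12, limma adjusted p = 0.184) in resilient pools, called by the p and fold rule, and 0.15 (SE 0.13, limma adjusted p = 0.520) in susceptible pools. It was lost without control pool 5 or resilient pool 1, 2 or 5, at 0.23 to 0.26.

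Tnrc6c was 8.97, 9.16, 9.08, 9.32 and 9.02 in control pools, 9.37, 9.25, 9.02, 9.30 and 9.73 in resilient pools, and 9.32, 8.96, 8.94 and 8.88 in susceptible pools. Susceptible pool 1 lay among the resilient pools and the other 3 below all of them. Of the 10 genes it alone was called between susceptible and resilient pools, where 2.14% of all genes were called and 0% had an adjusted p under 0.05. The difference was -0.31 (SE 0.13, limma adjusted p = 0.9999). It was -0.21 and not called without resilient pool 5, and it was also lost without susceptible pool 2, 3 or 4, at -0.29 to -0.26. Tnrc6b gave 0.13 (95% interval -0.11 to 0.37) in resilient and 0.00 (-0.26 to 0.25) in susceptible pools.

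The pools also differed in other measures that moved with these genes. As deviations from group means over the 14 pools, Tnrc6a and Tnrc6b correlated at r = 0.82, Tnrc6b and Tnrc6c at r = 0.72, and Dicer1 and Tnrc6b at r = 0.71. All of these share the library. The depth of the pool correlated with Tnrc6b at r = -0.89, with Tnrc6a at r = -0.82, with Tnrc6c at r = -0.69 and with Dicer1 at r = -0.53. The median depth was 5092339 reads in control, 4178996 in resilient and 6492655 in susceptible pools. Resilient pool 5 was the shallowest. Dicer1 was 0.32 to 0.41 higher in resilient pools whichever pool was left out, which does not address a relation with depth over all pools. The striatal projection neuron markers had a summed level of 9.84 to 10.65 log2 CPM in control, 8.53 to 10.68 in resilient and 8.66 to 10.30 in susceptible pools, with 2 of 6 called lower in each comparison. The choroid plexus markers lay at 5.04 to 7.55, 4.58 to 7.09 and 3.63 to 5.92, with 1 and 4 of 5 called lower. Of 6 neuron markers, 1 and 3 were called lower. Of all genes, 9.04% were called lower in resilient and 9.28% in susceptible pools. The striatal sum correlated with Ago2 at r = 0.84 and with Dicer1 at r = -0.04. The summed oligodendrocyte markers correlated with Tnrc6a at r = 0.86, with Tnrc6b at r = 0.83 and with Dicer1 at r = 0.55. The reads of a pool divided by its effective library size, the scaled total behind the CPM, correlated with Tnrc6c at r = 0.75, with Tnrc6b at r = 0.71 and with Dicer1 at r = 0.66. The 2 monocyte markers in the table (of 5) were Lyz2 and Csf1r, which is also in the microglia list. Their sum correlated with Dicer1 at r = -0.79, while the summed microglia markers correlated with Dicer1 at r = 0.17. The study adjusted the AGO2 mRNA for experimental cohort, which the labels of the pools do not give. Cohort was therefore not in the fit. The part of cohort, depth and tissue composition in the differences was not tested.

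Genes that work with the 10 were read from lists of the pathway. Of 21 deadenylation and decapping genes, 4 were called higher in resilient pools (none lower), where 8.65% of all genes were, and 3 in susceptible pools (none lower), where 9.65% were. Pan2, a poly(A) nuclease subunit recruited by the Tnrc6 scaffolds, rose by 0.58 (SE 0.10, limma adjusted p = 0.0112) and 0.56 (SE 0.10, limma adjusted p = 0.0110). Edc4, a decapping scaffold, was 0.43 (SE 0.11, limma adjusted p = 0.0513) and 0.54 (SE 0.12, limma adjusted p = 0.0204) higher, and Cnot3, a subunit of the CCR4-NOT deadenylase, 0.49 (SE 0.12, limma adjusted p = 0.0430) and 0.41 (SE 0.13, limma adjusted p = 0.0697). The list's median was 0.08 and 0.05, against -0.02 and -0.01 over all genes.

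Of 11 tailing and turnover genes, 3 were called higher in each comparison and none lower, against the same 8.65% and 9.65% of all genes. Zswim8, which takes part in target-directed miRNA decay, rose by 0.56 (SE 0.10, limma adjusted p = 0.0152) in resilient and 0.54 (SE 0.11, limma adjusted p = 0.0132) in susceptible pools. The other two were Lin28b, an inhibitor of let-7 maturation (0.52 and 0.44), and the exonuclease Xrn1 (0.27 in each). The list's median was 0.15 and 0.14.

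Of 10 nuclear processing cofactors, 2 were called higher in each comparison: Srrt, which links the cap-binding complex to Drosha, at 0.58 (SE 0.13, limma adjusted p = 0.0325) and 0.49 (SE 0.14, limma adjusted p = 0.0527), and Safb2 at 0.65 (SE 0.15, limma adjusted p = 0.0369) and 0.48 (SE 0.16, limma adjusted p = 0.0910). Ncbp2, of the cap-binding complex, was called lower in susceptible pools (-0.28). Of 8 export and loading genes, only Ran (-0.34), the nuclear transport GTPase, was called in resilient pools. In susceptible pools the chaperones Hsp90ab1 (-0.35) and Hsp90aa1 (-0.30) were called lower, and the pre-miRNA exporter Xpo5 (0.26) higher, as was the Dicer partner Tarbp2 (0.32), named after its value was seen. Of 8 Argonaute partners, Ddx6 (-0.31) was called lower in susceptible pools, none was called in resilient pools, and Wtip (0.88) was called higher in susceptible against resilient pools. The 1 PIWI gene in the table was not called. Median differences of the export and loading genes were 0.14 and 0.09, and of the partners -0.08 and -0.17.

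Over the 14 pools, the genes whose deviations from group means most resembled those of Dicer1 were Edem1 (r = 0.90), Eif2a (r = 0.87) and B930086L07Rik (r = 0.86). For Ago2 they were March4 (r = 0.95), Slc35f3 (r = 0.93) and Tcf7 (r = 0.93), and for Tnrc6a 6430710M23Rik (r = 0.97), Cecr2 (r = 0.96) and Gm38393 (r = 0.96). These are the highest of 16587 coefficients, and library and depth are shared.

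In blood, none of the 10 genes was called after CSDS within a strain. The count was 0 in B6 resilient mice (2.11% of all genes called), 0 in B6 susceptible mice (4.5%), 0 in B6 susceptible against resilient mice (2.03%) and 0 in D2 susceptible mice (1.57%), all by limma, and 0 of the 10 had an unadjusted p under 0.05. Dicer1, which was higher in the AGO2 pools, gave -0.10 (95% interval -0.38 to 0.17) in B6 resilient and -0.09 (-0.36 to 0.19) in B6 susceptible blood. In D2 susceptible mice it gave 0.12 (-0.16 to 0.39). In B6 controls Dicer1 was 5.45, 5.44, 5.44, 5.39 and 5.47 log2 CPM, a narrow range, while in B6 resilient mice it was 5.12, 5.09, 5.13, 5.58 and 5.74. The resilient mice thus lay on both sides of the controls, 3 below and 2 above. The 3 below have titles that begin with EC3 and the 2 above titles that begin with EC4, while the controls of both prefixes lay together. With the prefix as a block the difference was -0.09 and was not called. Over all 25 mice, Tnrc6b ranged from 6.31 to 8.09, Tnrc6a from 5.76 to 6.20, Ago3 from 2.44 to 3.66, Ago4 from 0.99 to 3.00 and Dgcr8 from 0.40 to 2.04 log2 CPM.

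Ago2 in D2 susceptible mice came nearest to a call. It was 8.08, 7.54, 8.07, 7.73 and 8.70 log2 CPM in D2 controls and 8.31, 8.76, 8.82, 8.38 and 8.22 in D2 susceptible mice, and D2 control 5 lay among the susceptible mice. The difference was 0.47 (SE 0.26, limma adjusted p = 0.9988). Without the 2 mice with disagreeing groups it was 0.29, and with the groups of the column headers -0.01, so its size rests on these mice. It was 0.64 and called without D2 control 5, and it was also called (0.47) without B6 resilient 5, which changes only the pooled spread. With the groups of the labels, the difference of the stress effect between the strains was 0.31 for Ago2 (95% interval -0.43 to 1.06). There 0 of the 10 genes were called, against 5.37% of all genes. This difference depends on the same 2 mice.

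Calls among the 10 genes came between the strains. In controls, Drosha was 4.18, 3.41, 3.95, 3.95 and 3.61 log2 CPM in B6 mice and 4.75, 4.07, 4.79, 4.32 and 5.28 in D2 mice. All D2 controls but control 2, 1 of the 2 mice with disagreeing groups, lay above every B6 control. The difference of 0.83 (SE 0.26) is 1.77-fold (limma adjusted p = 0.0281, exact permutation p = 0.0159). Without the 2 mice it was 0.97 and the groups did not overlap.

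Ago2 was 7.67, 7.09, 7.33, 7.37 and 7.45 in B6 controls, against the D2 values given above. The difference of 0.64 (SE 0.26) is 1.56-fold (limma adjusted p = 0.0955, exact permutation p = 0.0159), and it fell to 0.47 and was not called without D2 control 5. Without the 2 mice it was 0.76. Tnrc6c went the other way, at 4.72, 4.59, 4.96, 4.50 and 4.54 in B6 and 4.42, 4.64, 4.15, 4.26 and 4.20 in D2 controls. Its difference was -0.33 (SE 0.12, limma adjusted p = 0.0688), and -0.25 and not called without B6 control 3. These are 3 of the 10 genes, where 26.4% of all genes were called, so the share is near that of the table. None of the 10 was free of overlap in controls, where 12.0% of all genes were. Without the 2 mice Ago2, Drosha and Tnrc6c did not overlap, 3 of the 10 where 18.7% of all genes did not.

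The same strain comparison in susceptible mice was added after the values had been seen. Ago2 was 7.48, 7.01, 8.01, 7.25 and 7.96 in B6 susceptible mice and lay below all 5 D2 susceptible mice. The difference of 0.95 (SE 0.26) is 1.94-fold (limma adjusted p = 0.0110, exact permutation p = 0.00794). Drosha was 3.91, 3.74, 4.59, 3.80 and 4.41 in B6 and 4.82, 5.03, 5.17, 4.71 and 4.54 in D2 susceptible mice, a difference of 0.76 (SE 0.26, limma adjusted p = 0.0462). Only B6 susceptible 3 reached the D2 range. Ago1 was lower in D2, at 3.20, 3.19, 3.24, 2.97 and 3.21 against 3.52, 3.39, 3.90, 3.40 and 3.81 in B6, without overlap. Its difference was -0.44 (SE 0.13, limma adjusted p = 0.0248). Tnrc6c was again lower, by -0.35 (SE 0.12, limma adjusted p = 0.0518). These 4 calls of 10 compare with 23.7% of all genes called, and the 2 genes without overlap (Ago2 and Ago1) with 12.3%. Without the 2 mice the differences of Ago2, Drosha, Ago1 and Tnrc6c were 0.89, 0.72, -0.45 and -0.32, all still called.

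**Figure D4:**
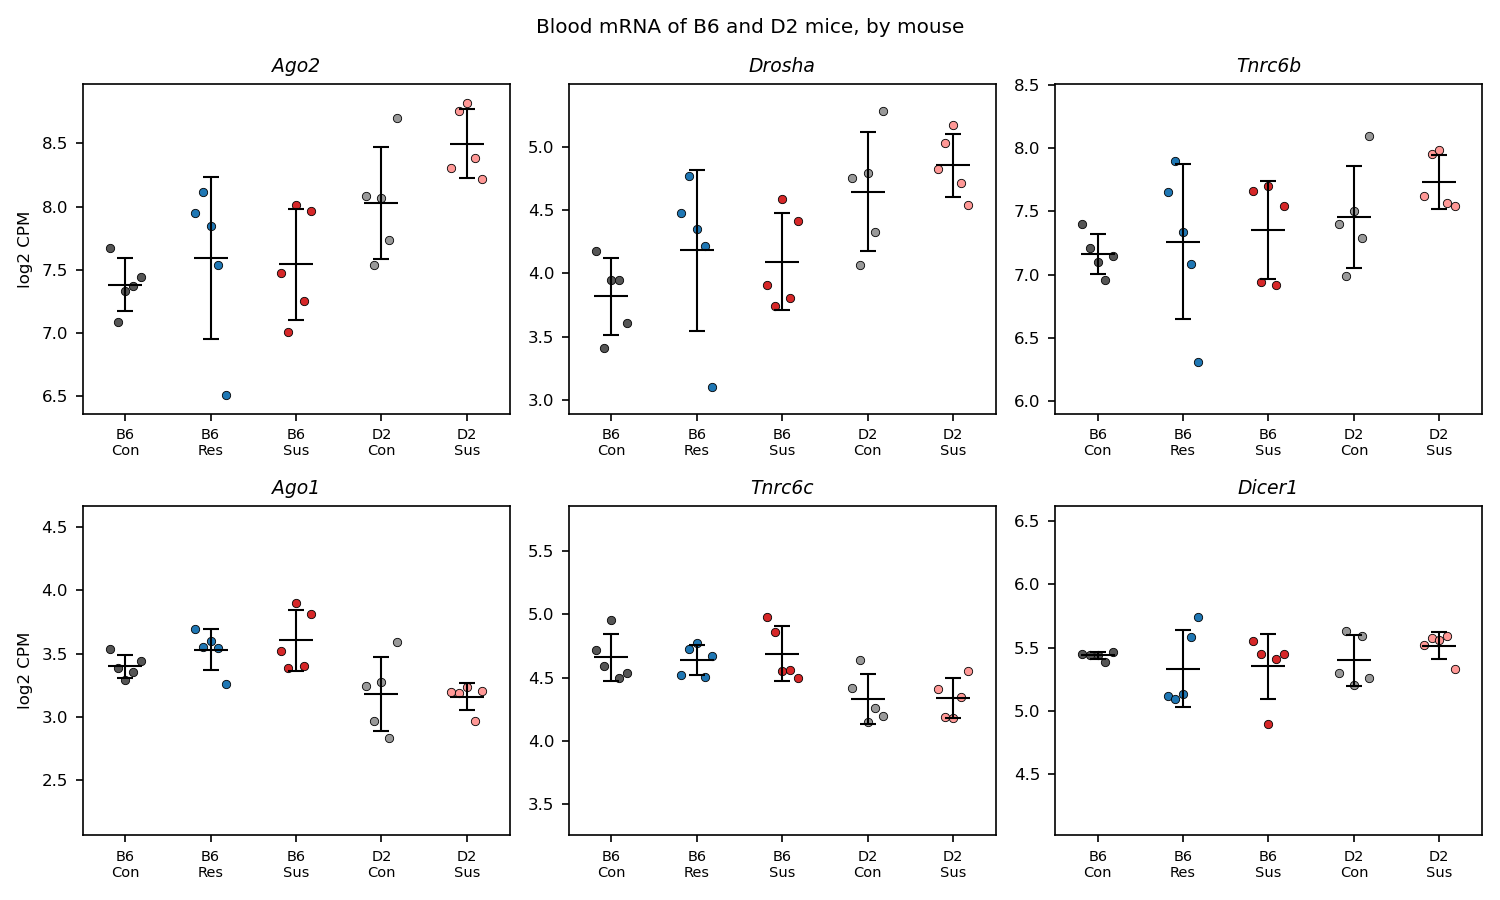
Blood levels of 6 of the genes (vertical axes, log2 CPM, each spanning the same 2.6 log2 units) in B6 and D2 mice by group (5 mice each), with points for mice and bars for mean and SD. D2 mice lie higher for Ago2 and Drosha and lower for Tnrc6c, and no group shift with stress within a strain was called.

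The strain groups were not balanced in other respects. Titles of B6 mice begin with EC3 or EC4 and those of D2 mice with ED3, ED4 or ED6, so strain and whatever these prefixes stand for cannot be told apart. D2 reads were aligned to the GRCm38 assembly of the mouse genome, which derives from a B6 strain, and the part of this in the strain differences was not tested. In D2 controls, 3 of 5 platelet and 3 of 6 T cell markers were called higher, and 4 of 4 B cell markers lower, than in B6 controls. Also called were 2 of 6 neutrophil and 1 of 5 monocyte markers (higher) and 2 of 6 erythroid and 1 of 4 NK cell markers (lower). Of all genes, 15% were called higher and 11.4% lower there.

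Across mice, several of the 10 genes moved with red cell genes. The summed level of Alas2 and Slc4a1, erythroid genes that are not globins, was 16.22 to 16.996 log2 CPM in B6 controls, 15.43 to 17.60 in B6 resilient and 16.13 to 17.49 in B6 susceptible mice. It was 15.38 to 16.70 in D2 controls and 15.97 to 16.86 in D2 susceptible mice. Within B6 (n = 15), Ago2 correlated with this sum at r = 0.95 (Spearman's rho = 0.88) and Drosha at r = 0.91 (rho = 0.88), and within D2 (n = 10) at r = 0.92 (rho = 0.85) and r = 0.96 (rho = 0.93). Of the 6 relations tested, these 4 had adjusted permutation p-values of 3e-05, 3e-05, 0.000216 and 4e-05 for r, with 1e-05 the smallest unadjusted p that 100000 permutations can give, and of 9e-05, 6e-05, 0.00396 and 0.00066 for rho. Without the 2 mice farthest from the median sum of their strain, r was 0.91, 0.84, 0.82 and 0.92. Dicer1 went the other way in B6, at r = -0.82 (rho = -0.62, adjusted permutation p = 0.000216 and 0.0178), and -0.72 without the 2 farthest mice. In D2 it gave r = -0.27 (rho = -0.44, adjusted permutation p = 0.445 and 0.203). All values of a mouse share its library and scaling, and these relations were chosen after the values had been seen.

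The strains formed separate bands in this relation. Of 10 D2 mice, 9 had a B6 mouse within 0.25 log2 units of their erythroid sum, and for Ago2 and Drosha all 9 lay above every such B6 mouse. With the erythroid sum as a covariate, added after the values had been seen, the D2 minus B6 difference was 0.98 for Ago2 and 1.16 for Drosha in controls, and 1.21 and 1.02 in susceptible mice. These strain differences are larger than those without the covariate. At the median, the erythroid sum was lower in D2 than in B6 controls (16.11 against 16.56 log2 CPM). In this fit the sum and the genes share library and scaling, and the part of red cells in the strain differences was not tested. Tnrc6b, 0.29 and not called in controls, was 0.57 and called in that fit, as was Ago4 at -0.59, so that 5 of 10 genes were called against 38.1% of all genes. In D2 susceptible against D2 control mice Ago2 was then 0.28 and called, where 4.23% of all genes were called.

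**Figure D5:**
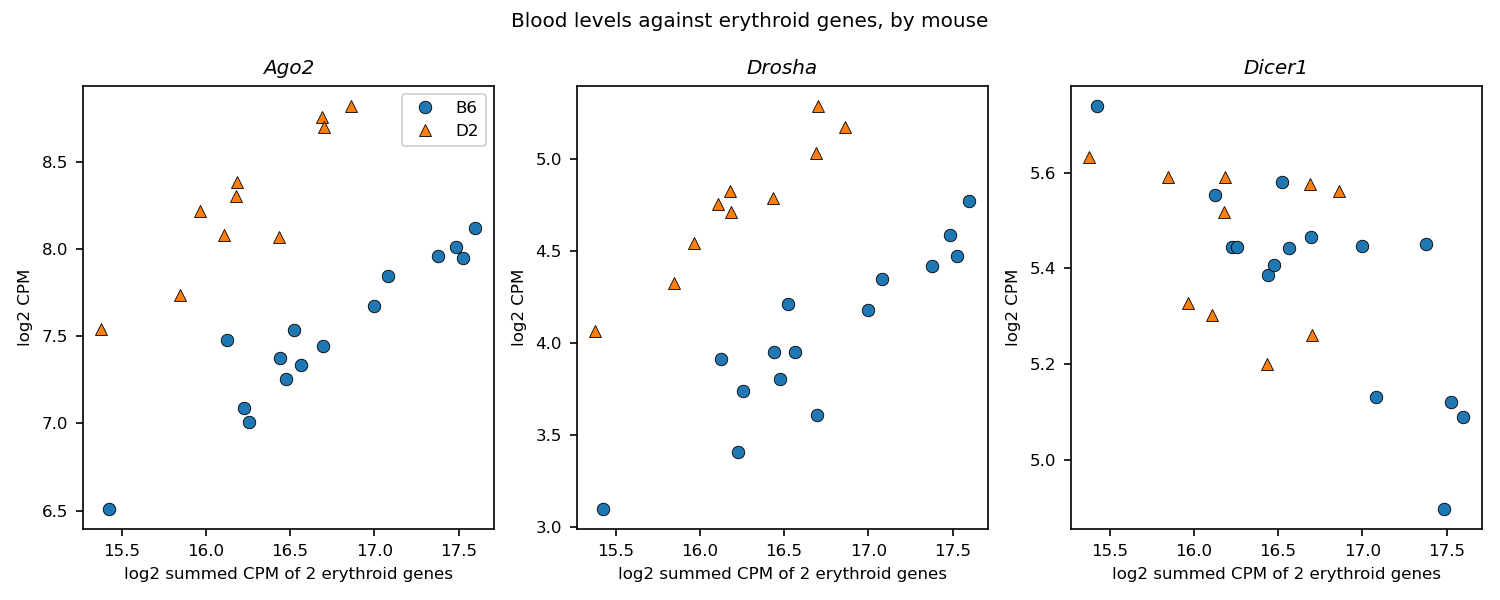
Blood level of Ago2, Drosha and Dicer1 (vertical axes, log2 CPM) against the summed level of Alas2 and Slc4a1 (horizontal axis, log2 CPM) in 15 B6 and 10 D2 mice, each point a mouse. Ago2 and Drosha rise with the sum along separate lines for the strains (r = 0.95 and 0.91 in B6), and Dicer1 falls in B6 (r = -0.82).

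The 10 genes fell into groups by this behaviour. As deviations from group means over the 25 mice, Ago2 correlated with Drosha at r = 0.96, with Tnrc6b at r = 0.92 and with Ago1 at r = 0.81, and with Ago4 at r = -0.69 and Dicer1 at r = -0.66. The genes most like Ago2 were Hectd4 (r = 0.98), Rbm33 (r = 0.97) and Ncoa7 (r = 0.97) of 13084. For Dicer1 they were Gm44321 (r = 0.87), Wdr3 (r = 0.86) and Dock10 (r = 0.84), and for Tnrc6a Rbm25 (r = 0.77), Nxf1 (r = 0.77) and Ighj3 (r = 0.74). Reads as a percent of the effective library size, which the scaling sets, ranged from 65.2% to 155% over the mice and correlated with Ago2 at r = 0.95. B6 resilient 5, with 68.2%, held the lowest Ago2 (6.51) and Drosha (3.10) and the highest Dicer1 (5.74) of all mice. Ago2 in the other B6 resilient mice was 7.95, 8.12, 7.84 and 7.54, and Drosha 4.47, 4.77, 4.35 and 4.21. Without resilient 5, Ago2 (0.48) and Drosha (0.63), which moved together, were called higher in B6 resilient mice than in controls. With all mice neither was called, and the share of all genes called without this mouse is not given here. Resilient 5 also had the lowest erythroid sum of the B6 mice (15.43 log2 CPM). The miRNA that AGO2 matures without Dicer, miR-451a, was 18.40 ± 0.23 log2 CPM in B6 controls and 18.14 ± 0.31 in D2 controls (SD, n = 5), ranges of 18.07 to 18.70 and 17.81 to 18.66 that overlap.

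In the pathway lists, the nuclear cofactors Hnrnpa1 (-0.41), Ncbp1 (-0.31) and Ncbp2 (-0.30) were called lower in B6 susceptible mice than in controls, 3 of 10 where 1.52% of all genes were called lower, and none had an adjusted p under 0.05. Against resilient mice Ncbp2 (-0.31) alone was called. Platelet markers were called higher in the B6 susceptible mice than in controls, 4 of 5 where 2.98% of all genes were. None of the other pathway lists had a called gene within B6 or within D2. Between the strains in controls, 3 of 8 export and loading genes were called lower in D2 mice and none higher, where 11.4% of all genes were called lower, and the list's median was -0.07. The 3 are heat shock chaperones that help load Argonaute. Hspa8 fell by 0.94 on the log2 scale (SE 0.19, limma adjusted p = 0.000928), Hsp90ab1 by 0.70 (SE 0.15, limma adjusted p = 0.00188) and Hsp90aa1 by 0.42 (SE 0.18, limma adjusted p = 0.122). Hspa8 and Hsp90ab1 were also called lower in D2 susceptible mice (-0.64 and -0.46). Of the others, Cnot8, a deadenylase of CCR4-NOT, was higher (0.58, SE 0.12, limma adjusted p = 0.00105), as were Cnot6 (0.48) and Khsrp (0.51), and the decapping enzyme Dcp2 (-0.39), the uridylyltransferase Tut4 (-0.53) and the Argonaute partner Fmr1 (-0.33) were lower. Of the 21 deadenylation and decapping genes, 2 were called higher and 2 lower. In susceptible mice, Cnot8 (0.39) and the nuclear cofactor Srsf3 (0.33) were called higher in D2, and Tut4 (-0.51) and Wtip (-1.80) lower.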

How the data were processed

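Libraries were sequenced by the authors, aligned to GRCm38 (STAR for mRNA and Bowtie 1.1.1 for miRNA), counted (HTSeq for mRNA) and filtered for low counts. The authors deposited log2 CPM values made with voom. Every deposited log2 value came back as a whole number of reads within 0.0001 reads, so the cohort adjustment that the study describes for the AGO2 mRNA is not in them.

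The genes and lists were chosen with earlier results of these data known. All groups of a table were fitted in 1 limma model (limma 3.58.1, R 4.3.3) with a mean-variance trend, after the fit was tested on simulated data. The p-values measure the spread between pools or mice. Permutation tests were exact and two-sided for single genes and drew 100000 resamples for correlations. At most 3 called genes per list and comparison were named, by smallest p (Tarbp2 was named in addition, after its value was seen), and for Ago2, Dicer1 and Tnrc6a the 3 genes with the highest correlation. Levels per kilobase divide by the union of GENCODE M21 exons. The strain comparison in susceptible mice and the erythroid covariate were added after the values had been seen. Alternatives were other scalings, weights, offsets, filters and blocks, and leaving out each library. One marker gene is not reported here.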

Additional observations from a re-analysis of the deposited data

Results flagged for a closer look

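By a test for a sample far from the others of its group, which chance alone passes in about 1 of 20 groups (about 4 of the 80 groups of 1 gene tested), 5 values were marked, all in blood and all the lowest of their group, and no cause was tested. Ago4 in D2 control 5 was 0.99 log2 CPM, against 2.32 to 2.78 in the other 4 mice. Dgcr8 in B6 resilient 3 was 0.40, against 1.58 to 1.94. Dicer1 in B6 susceptible 3 was 4.90, against 5.41 to 5.55, and in D2 susceptible 5 it was 5.33, against 5.52 to 5.59. Ago1 in D2 susceptible 4 was 2.97, against 3.19 to 3.24. B6 susceptible 3 also had the highest erythroid sum of its group (17.49 log2 CPM) and D2 control 5 that of its group (16.70). D2 susceptible 5 had the lowest of its group (15.97), and B6 resilient 3 (17.08) and D2 susceptible 4 (16.18) the middle values of theirs.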

How the results depend on the processing

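No call of the 10 genes reversed under any alternative, and Dicer1 remained called in both BNST comparisons under all of them, including leaving out each pool. The median of all genes moved by at most 0.0246 on the log2 scale between scalings. The number of the 10 genes called in resilient against control pools, 3, was 1 at an adjusted p under 0.05 and 1 to 4 when a pool was left out, with 1 without resilient pool 5. In susceptible against control pools the number, 1, was 4 with quantile normalization and 1 to 2 when a pool was left out, with 2 without control pool 1 or susceptible pool 2. The shares of all genes called with quantile normalization or with a pool left out are not given here. These counts are therefore not read as a result about the 10 genes. Between susceptible and resilient pools the number, 1, was 0 at an adjusted p under 0.05, with quantile normalization and with a replicate block, and 0 to 1 when a pool was left out. Same-numbered pools correlated at -0.17 to 0.14 in their deviations and 3 of 14 pools correlated best with their own number, so the numbers were not taken to pair pools. With the replicate block Tnrc6c was -0.27. The Ago4 call in resilient pools was also lost with no trend, sample weights or quantile normalization.

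In blood, the number in B6 resilient against control mice, 0, was 0 to 2 when a mouse was left out, with 2 without B6 resilient 5. In D2 susceptible against control mice it was 0, and 1 (Ago2) with sample weights, quantile normalization, only the compared groups or the erythroid covariate, and 0 to 1 when a mouse was left out. These Ago2 calls were made with the groups of the labels. Between D2 and B6 controls it was 3, and 5 with the erythroid covariate. At an adjusted p under 0.05 it was 1, where 15.5% of all genes passed. The strain difference in the stress effect had 0, and 1 (Ago2) with quantile normalization. Apart from the adjusted p and the erythroid covariate, the shares of all genes called in these blood alternatives are not given here. The causes were not tested. The planned quasi-likelihood count test was not run, since the deposited unit is log2. Depth limits Dgcr8 most, with 13 to 74 reads per blood library.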
